A study of Homo sapiens with 2 samples.

Results

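The RNA levels of 10 genes that carry messenger RNA out of the nucleus were compared between A375 cells given a siRNA against THOC2 (si-THOC2) and A375 cells given a control siRNA (NC). The genes were ALYREF, CHTOP, FYTTD1 and POLDIP3 (export adaptors), DDX39A and DDX39B (RNA helicases), SARNP and ZC3H11A (proteins that join the TREX complex), and NXF1 and NXT1 (the export receptor). Every probe whose gene symbol was 1 of these names was taken. The array held 15 such probes among 58199 gene probes, and 10 such genes among 34757 distinct gene symbols.

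In human cells, messenger RNA leaves the nucleus after it has been coated with proteins during transcription and processing. The TREX complex, built on the THO complex that holds THOC2, loads an RNA helicase and adaptor proteins on the transcript. The adaptors then hand the RNA to the heterodimer of NXF1 and NXT1, which passes through the nuclear pore. The question here was whether the RNA of these export genes differed once THOC2 had been targeted.

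A375 is an established human melanoma cell line. Total RNA was collected 48 h after the siRNA, with 1 array per condition, labelled with Cy3 on an Agilent SurePrint G3 Human Gene Expression array. The treated and control cells shared the line, the culture medium given in the labels, the transfection and the extraction. A single siRNA sample against THOC2 was measured, so the siRNA's effect on THOC2 and any other effect of that siRNA cannot be told apart. For both samples the source field named the opposite condition from the title and the description. The title and description were followed. The probes for THOC2, the targeted gene, were dimmer on the array labelled si-THOC2, with signals of 136 on NC and 40.9 on si-THOC2 for the first probe and 67.3 and 35.1 for the second. Their log2 fold changes, si-THOC2 over NC, were -1.42 and -0.63. How far cultures of 1 condition differ from each other cannot be measured with 1 array each, so no test was run and no p-value is given.

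Both arrays lay on 1 slide and were scanned together. A signal here is the scanner software's processed signal of a spot, in arbitrary units, and a spot is detected when the software marks it as well above background. Of the gene probes, 42.3% were detected on NC and 39.4% on si-THOC2, and no spot was saturated. The 75th percentile of the log2 signal was 6.62 on NC and 6.31 on si-THOC2, a difference of -0.31. The log2 fold change is the log2 signal on si-THOC2 minus that on NC after each array's 75th percentile was subtracted, so a value above 0 means higher on si-THOC2. Probes detected on at least 1 array were compared, which left 25345 probes of 17514 genes. Of 8 melanocyte lineage markers, 4 were detected on both arrays (DCT, MITF, S100B and SOX10), while PMEL, TYR and TYRP1 were detected on neither. MLANA was detected on si-THOC2 only. Of 6 keratinocyte markers 2 were detected on both arrays, and the summed signal of the detected probes, nearly all of it from 1 probe, was 32400 on NC and 20800 on si-THOC2. Of 3 endothelial markers 3 were detected on NC and 1 on si-THOC2, with summed signals of 73.5 and 17.6. Each sum takes in only the probes detected on that array, so these sums cover different probes. The highest endothelial signals were 22.1 on NC and 17.6 on si-THOC2, near the lowest detected signals of 14.7 and 15.9. Of 5 leukocyte markers, 4 of them on the array, 3 were detected on both, with summed signals of 76.7 and 91.3. DCN, the only 1 of 6 fibroblast markers detected, had 62.4 and 149, and the melanocyte markers summed to 6790 and 5640. All these signals are before scaling. After scaling, the median log2 fold change of the compared markers was 0.06 for melanocyte, 0.36 for keratinocyte and 0.39 for leukocyte markers. It was 1.56 for the fibroblast marker and -0.40 for endothelial markers. The keratinocyte value is the midpoint of 2 genes and does not describe the brightest signal. Before scaling, the highest keratinocyte signal was 32300 on NC and 20600 on si-THOC2, a larger drop than that of the 75th percentile. Markers of other cells thus differed between the arrays in both directions, and their part in the results was not tested.

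The values below rest on how each probe reads its gene. Each probe was 60 bases long and was printed on 1 spot. The sequences of 4 probes are shown. These are the probes of both helicases, which are close relatives, of the receptor NXF1, and a POLDIP3 probe listed for a separate transcript variant. They are written 5′ to 3′ as the array files list them, in lower case throughout, with positions in the hg19 build.

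DDX39A, chr19:14519888-14519947, minus strand: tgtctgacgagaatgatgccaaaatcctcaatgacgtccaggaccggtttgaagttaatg

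DDX39B, chr6:31504301-31504360, minus strand: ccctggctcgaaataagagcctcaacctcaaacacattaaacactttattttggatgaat

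NXF1, chr11:62561878-62562431, minus strand: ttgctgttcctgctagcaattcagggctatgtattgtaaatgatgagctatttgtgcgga

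POLDIP3, chr22:42998800-42998859, minus strand: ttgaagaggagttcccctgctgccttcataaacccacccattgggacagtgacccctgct

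The longest run of bases shared by the DDX39A and DDX39B probes was 6 on the same strand and 7 on opposite strands. Neither probe was set against the other helicase's transcript, so whether a probe also reads its relative was not tested. The NXF1 positions span 554 bases for a probe of 60, so the probe's bases are not contiguous in the genome. The same holds for the ZC3H11A probe at chr1:203823011-203823200, whose positions span 190 bases. Across all 15 probes the longest run shared with a probe of another gene was 13 to 15 bases. The GC content of the 15 probes ran from 35% to 55%. The exon or untranslated region that each probe lies in was not analysed here.

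None of the 10 genes differed by 2-fold between the arrays. Of the 15 probes, 14 were detected on both arrays, and the remaining one, for CHTOP, was detected on neither. All 14 detected probes had a lower signal on si-THOC2 before scaling, as the array as a whole had. After scaling, 11 of the 14 probes (78.6%) and 8 of the 10 genes (80%) were above 0. The gene values ran from -0.10 for CHTOP to 0.27 for DDX39A, with a median of 0.14. The median of all compared genes was 0.02, with 53.4% of them above 0.

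**Figure D1:**
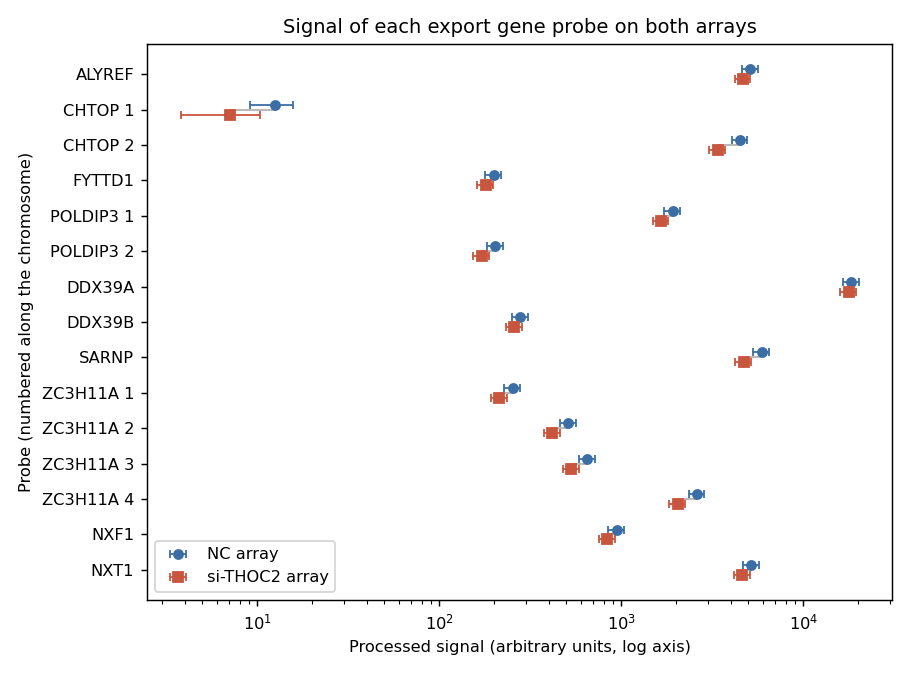
Processed signal (arbitrary units, log axis) of the 15 probes on the NC array (circles) and the si-THOC2 array (squares), with bars for the scanner software's error of 1 spot. The detected probes run from a signal of 199 to 18294 on NC, each has its lower point on si-THOC2, and the first CHTOP probe stands apart at 12.5 and 7.09.

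No probe of the 10 genes was lower or higher by 2-fold, where 3.33% of all compared probes were lower and 2.93% were higher. At 1.5-fold the 10 genes again had 0 probes lower and 0 higher, against 7.69% and 6.14% of all compared probes. Dim probes made most of those calls. The 14 detected probes all had a log2 signal over 7 on both arrays, and among the 12373 compared probes as bright, 0.145% were lower and 0.202% higher by 2-fold. At 1.5-fold those shares were 0.970% lower and 1.22% higher. Against bright probes, 0 of 14 was therefore near the background share. The median of genes with bright probes was 0.05, and 61.1% of them were above 0.

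2 estimates of technical error were at hand for a single spot. The scanner software's own error, carried through to a log2 fold change, was 0.20 to 0.21 for the 14 probes. The software gave nearly the same fraction of the signal as error for each of these probes, so this is close to a fixed yardstick. The other estimate was the SD of the log2 fold change between repeated spots of 1 probe, taken from other probes. Its median was 0.05 at log2 signals over 8 and 0.10 from 6 to 8. Neither includes the spread between cultures. Of the 14 probes, 13 had a log2 fold change smaller in size than the software's error, DDX39A being the exception. With the main scaling, the probes of ALYREF, DDX39A, DDX39B, NXF1 and NXT1 were farther from 0 than 2 SDs of repeated spots. The median of all bright probes was itself 0.06 there, against 0.01 with lowess centring, an alternative scaling. After lowess centring ALYREF, NXF1 and NXT1, at 0.0998, 0.0881 and 0.0747, lay within 2 SDs, as they did after quantile normalization. DDX39A and DDX39B stayed past 2 SDs with both. CHTOP then lay past 2 SDs below 0 with both, and SARNP with quantile normalization only, at -0.106. All 14 lay inside the middle 95% of compared probes within 0.5 log2 units of their own mean signal, and 9 of them lay above the median of such probes.

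**Figure D2:**
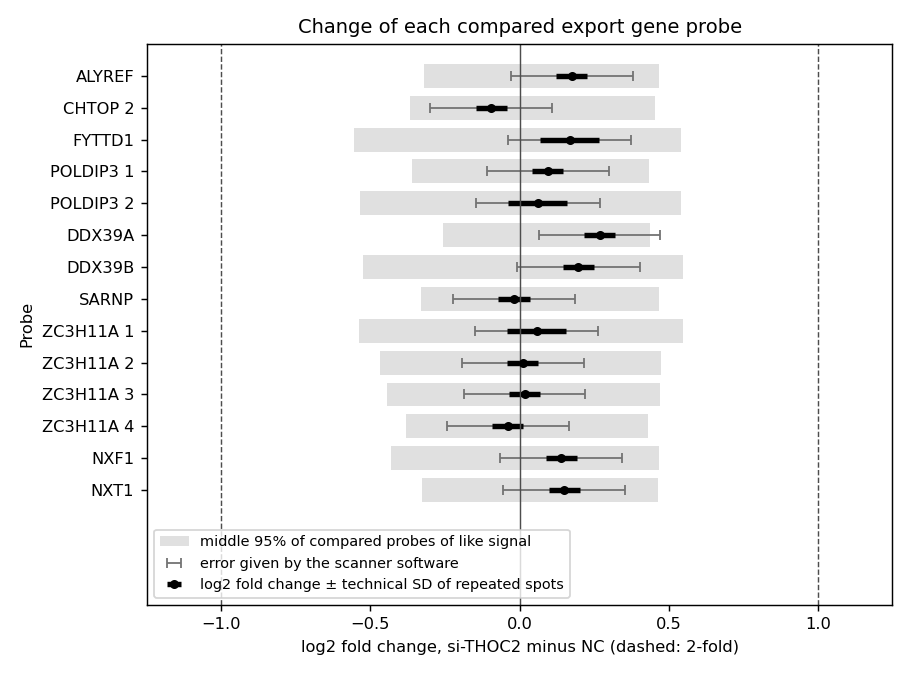
Log2 fold change (si-THOC2 minus NC) of the 14 compared probes, with thin bars for the scanner software's error, thick bars for the SD of repeated spots and grey bands for the middle 95% of compared probes of like signal. All 14 points lie within their grey bands, and DDX39A is the only one whose thin bar does not reach 0.

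The adaptors bind the transcript and recruit the receptor. ALYREF, the adaptor that bridges THO and NXF1 on many transcripts (Entrez gene 10189, chr17:79845764-79845823, minus strand), had a signal of 5116 ± 512 (software error) on NC and 4659 ± 466 on si-THOC2. After scaling it was higher on si-THOC2, with a log2 fold change of 0.17 and a ratio of 1.13. Among probes of like signal it stood at percentile 70.5, well inside their spread.

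CHTOP, an arginine-methylated adaptor that also joins TREX (Entrez gene 26097, chr1:153617779-153617838, plus strand), had a signal of 4484 ± 448 on NC and 3386 ± 339 on si-THOC2. Its log2 fold change of -0.10 was the lowest of the 10 genes and stood at percentile 15.5 among probes of like signal. The other CHTOP probe (chr1:153616802-153616861), listed for a different transcript, gave 12.5 ± 3.33 and 7.09 ± 3.29, and neither was well above background. That probe gives no fold change, so CHTOP rests on a single spot per array.

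FYTTD1, an adaptor also known as UIF that binds the helicase and NXF1 (Entrez gene 84248, chr3:197510301-197510360, plus strand), had a signal of 199 ± 20.1 on NC and 180 ± 18.3 on si-THOC2. This was the dimmest of the 14 detected probes on NC. This gave a log2 fold change of 0.17, at percentile 74.5 among probes of like signal.

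POLDIP3, an adaptor also known as SKAR that is tied to spliced transcripts (Entrez gene 84271), had 2 probes, both on the minus strand. The probe at chr22:42980171-42980230 gave 1919 ± 192 on NC and 1653 ± 165 on si-THOC2, a log2 fold change of 0.09. The probe listed for transcript variant 2, whose sequence is shown above, gave 203 ± 20.5 and 171 ± 17.4, a log2 fold change of 0.06. Whether that probe also reads other variants was not tested. The probes differed from each other by less than the software's error, and the gene mean was 0.08 ± 0.02 (SD over 2 probes, which is no replicate error).

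The helicases load the adaptors on RNA at the cost of ATP. They held the highest values among the 10 genes with the 75th percentile scaling. DDX39A, also known as URH49 (Entrez gene 10212), had a signal of 18294 ± 1829 on NC and 17775 ± 1778 on si-THOC2. Its log2 fold change was 0.27, a ratio of 1.20, at percentile 87.0 among probes of like signal. DDX39B, also known as UAP56 (Entrez gene 7919), had a signal of 279 ± 28.0 on NC and 258 ± 26.0 on si-THOC2. The log2 fold change of DDX39B was 0.20, at percentile 77.1. The helicases thus stood next to each other in this order of the genes, with values closer together than the software's error of either. The order depended on the scaling. With quantile normalization, FYTTD1 at 0.167 lay between DDX39B at 0.180 and DDX39A at 0.164, and the authors' values gave the same order.

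SARNP, a small nucleic acid binding protein also known as CIP29 that binds the helicase (Entrez gene 84324, chr12:56151265-56151324, minus strand), had a signal of 5917 ± 592 on NC and 4712 ± 471 on si-THOC2. Its log2 fold change was -0.02, smaller in size than the SD of repeated spots. With CHTOP it was 1 of the 2 genes below 0.

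ZC3H11A, a zinc finger protein found with TREX (Entrez gene 9877), had 4 probes on the plus strand of chromosome 1. The probe at chr1:203797464-203797523 gave 254 ± 25.6 on NC and 214 ± 21.6 on si-THOC2, a log2 fold change of 0.06. The probes at chr1:203821489-203821548 and chr1:203822509-203822568 gave log2 fold changes of 0.01 and 0.02. The probe at chr1:203823011-203823200, the brightest of the 4, gave 2605 ± 261 and 2045 ± 204, a log2 fold change of -0.04. The 4 probes spread to both sides of 0, and the gene mean was 0.01 ± 0.04 (SD over 4 probes). No direction can be given for ZC3H11A, whose mean was above 0 under 5 of 10 processing settings and below 0 under the other 5. Settings that changed only the detection filter or the value for dim signals could only repeat its main value, above 0.

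The receptor carries the RNA through the pore. NXF1, the subunit that contacts RNA, adaptors and nucleoporins (Entrez gene 10482), had a signal of 944 ± 94.4 on NC and 839 ± 84.0 on si-THOC2. NXF1 thus had a log2 fold change of 0.14, at percentile 66.8 among probes of like signal. NXT1, its smaller partner (Entrez gene 29107, chr20:23335235-23335294, plus strand), had a signal of 5168 ± 517 on NC and 4625 ± 462 on si-THOC2. Its log2 fold change was 0.15, at percentile 65.7. The subunits of the receptor had nearly the same value, in the middle of the 10 genes.

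**Figure D3:**
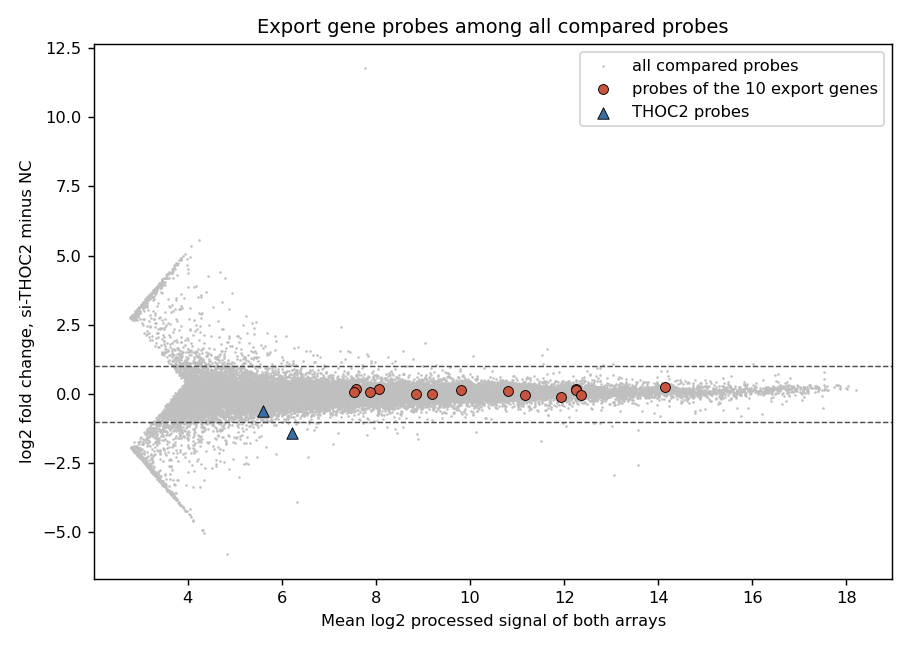
Log2 fold change of every compared probe against its mean log2 signal, with the 14 probes of the 10 export genes drawn larger and lines at 2-fold. The spread of all probes narrows as the signal rises, and the 14 probes lie between -0.10 and 0.27, inside the narrow range of bright probes.

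From the highest, the order of the gene values with the 75th percentile scaling was DDX39A, DDX39B, ALYREF, FYTTD1, NXT1, NXF1, POLDIP3, ZC3H11A, SARNP and CHTOP. Neighbours in this order differed by less than the software's error. DDX39A and CHTOP, at its ends, differed from each other by 0.36 on the log2 scale, a ratio of 1.29. This difference does not depend on a constant scaling of the arrays, and over 10 processing settings it ran from 0.31 to 0.57, the highest with no detection filter, which brings in the dim CHTOP probe. The SD of the 14 probe values was 0.10, against 0.23 for all bright probes and 0.67 for all compared probes.

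Part of the gene values followed the scaling. The median of the 10 genes was 0.14 with the 75th percentile, 0.07 with quantile normalization or with the authors' own normalized values, 0.08 with lowess centring and 0.02 with normexp background correction. The median of genes with bright probes moved as well, and the 10 genes stood above it by 0.09, with a range of 0.06 to 0.10 over the settings. The sign changed between settings for ZC3H11A and for POLDIP3, which was -0.02 with normexp and above 0 otherwise. The other 6 genes above 0 stayed above it and CHTOP and SARNP stayed below it in all 10 settings. Not all of these settings were separate checks. Those that changed only the detection filter or the value for dim signals left every gene but CHTOP at its main value. The authors' values nearly repeated quantile normalization. Position on the array was also examined, in blocks of spots. In the blocks that held the 14 probes, the median log2 fold change of all compared probes ran from -0.03 to 0.07.

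**Figure D4:**
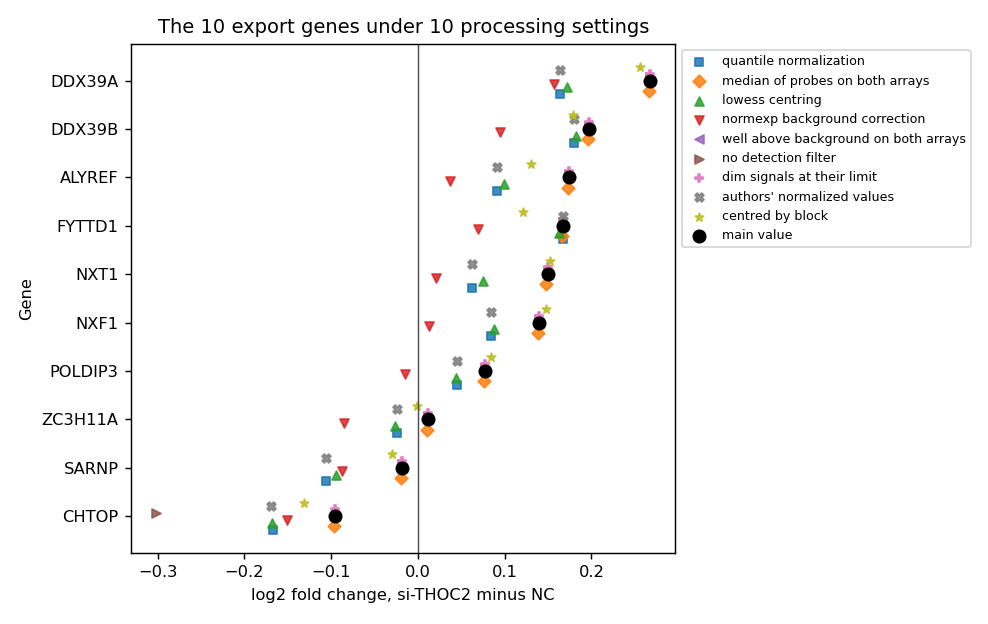
Log2 fold change of each of the 10 genes under 10 processing settings, 1 marker per setting, some of which overlap. ALYREF, DDX39A, DDX39B, FYTTD1, NXF1 and NXT1 keep to the right of 0, CHTOP and SARNP to the left, and ZC3H11A and POLDIP3 have markers on both sides.

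The other genes of the pathway were taken as 7 lists of 52 genes, of which 51 were on the array and 49 had a compared probe. Their median gene value was 0.09, and 36 of the 49 (73.5%) were above 0. Of their 67 compared probes, 1 was lower by 2-fold and 0 were higher, against 3.33% and 2.93% of all compared probes. Among bright probes those shares were 0.145% and 0.202%. The lists held bright and dim probes, and their counts were not set against probes of like signal. The 1 lower probe was for NCBP1, the large subunit of the nuclear cap-binding complex, with a signal of 18.5 on NC and 6.69 on si-THOC2, where it was not well above background. No fold is given for it, since the NC signal did not exceed the lowest signal detected on the si-THOC2 array after scaling. The other NCBP1 probe, detected on both arrays, had signals of 269 and 184 and a log2 fold change of -0.23.

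By list, the THO subunits other than THOC2 had a median gene value of 0.29 over 5 genes, and 4 of them were above 0. The remaining one, THOC1, had signals of 16.6 on NC and 12.5 on si-THOC2, where it was not well above background. The exon junction complex, which marks spliced transcripts, had a median of 0.17 over 8 genes. TREX-2, which links transcription sites to the pore, had 0.09 over 6 genes, the factors that release RNA at the pore had 0.10 over 10, and the SR and 3′-end adaptors had 0.09 over 10. The cap-binding proteins with ARS2 had 0.03 over 6 genes, and the relatives of NXF1 and NXT1 had -0.14 over 4. Compared probes of these relatives were dim, with signals from 30.3 to 71.9 over both arrays. The medians thus lay on both sides of the 0.14 of the 10 genes, with no test of the differences.

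Single genes of these lists ranged more widely than the 10 genes. TPR, a nucleoporin of the nuclear basket, had the lowest gene mean, with signals of 381 on NC and 183 on si-THOC2 and a log2 fold change of -0.75 from the 1 of its 2 probes that was compared. NCBP1 had the next lowest mean only through its dim probe, for which no fold is given. By probes detected on both arrays, NXF5 at -0.28 and NCBP2 at -0.25, both named after their values were seen, lay below NCBP1 at -0.23. GLE1, a cofactor of RNA release at the pore, had the highest, with signals of 34.7 and 54.2 and a log2 fold change of 0.95. CPSF6, a subunit of a cleavage factor at the 3′ end, followed with signals of 692 and 851 and a log2 fold change of 0.61. None of the 10 genes lay as far from 0 as TPR, GLE1 or CPSF6.

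**Figure D5:**
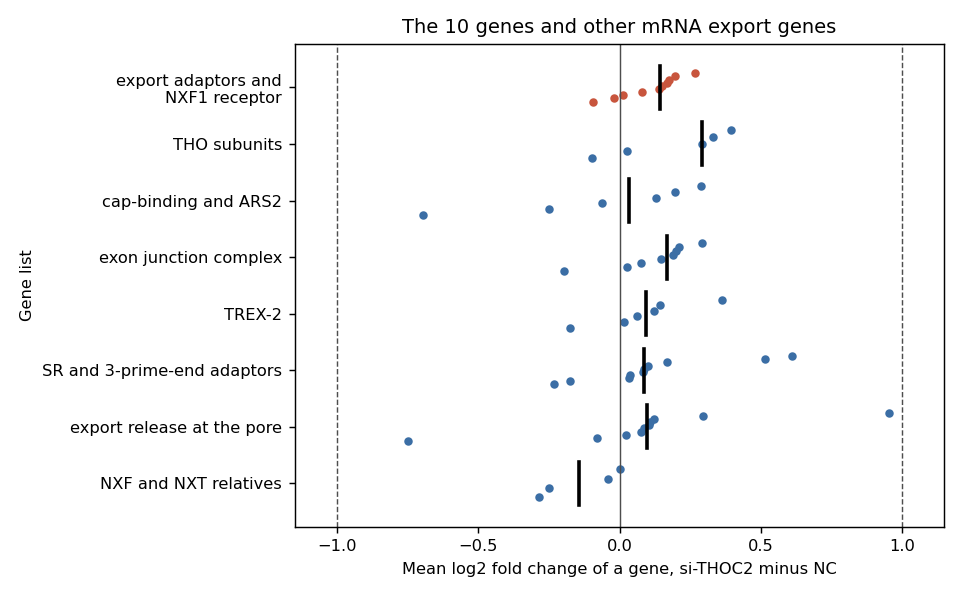
Mean log2 fold change of each gene, with the 10 export genes beside the 7 lists of other export genes, 1 point per gene and a bar at each median. The 10 genes lie between -0.10 and 0.27, while TPR at -0.75 and GLE1 at 0.95 mark the ends of the list for release at the pore, and the lowest cap-binding point is NCBP1, whose mean takes in a probe not well above background on si-THOC2.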

How the data were processed

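The deposited scanner files give an intensity for each spot. The authors obtained it with Agilent Feature Extraction 10.7.1.1, whose processed signal has background removed and array trends corrected. That software's outlier, saturation and detection marks were deposited beside it and were used. The authors also deposited normalized log2 values, whose sorted values are nearly the same on both arrays. These were used as an alternative. A deposited table of the authors' own comparison (fold changes) was not used.

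Control spots and spots with outlier marks were left out. Processed signals were taken to log2 with no pseudocount, repeated spots of a probe were averaged, and the 75th percentile of each array was subtracted. Compared probes of a gene were averaged. A difference of 2-fold counted as called, the threshold of the study's methods. The study's Student's test needs replicates and was not run. The 10 genes and the lists were chosen with earlier results of these data known. Genes named were the 10, THOC2, and, of the lists, each with a probe past 2-fold and the 2 lowest and 2 highest in mean. Gene symbols are those of the array's design, and NCBP3, SEM1 and NUP42 were found under older symbols. Alternatives were another scaling, background correction, detection filter, value for dim signals, source of values, position on the array, fold and probe per gene. Calculations used Python 3.11.15, numpy 2.4.6, pandas 2.3.3, statsmodels 0.14.6, R 4.3.3 and limma 3.58.1. Only the scaling and subtraction of the arrays were run on simulated data, with detected probes, low noise and changes well past 2-fold. That run says nothing on dim probes or small changes. The number of arrays limits the precision.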

Additional observations from a re-analysis of the deposited data

How the results depend on the processing

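No paired analysis was possible because each group holds a single array. The 10 genes had 0 probes lower and 0 higher at 1.5-fold, 2-fold and 3-fold and under every other alternative run. Their median of 0.14 became 0.0731 after quantile normalization, 0.0814 after lowess centring, 0.0172 after normexp and 0.0731 in the authors' normalized values. Of 100 gene values under 10 alternatives, 73 stayed within the SD of repeated spots and 27 moved by more. Many of the 73 could not move. Changes of the detection filter or of the value for dim signals cannot move a gene whose probes were all detected on both arrays. Taking the brightest probe cannot move a gene with 1 compared probe. The other export genes' median of 0.09 became 0.0205 with normexp. Their 1 lower probe became 0 with lowess centring, with normexp, with detection on both arrays, with dim signals at their limit and at 3-fold, and 2 with no detection filter and at 1.5-fold. Their 0 higher probes became 2 at 1.5-fold. The THOC2 mean of -1.03 became -0.51 with normexp and -1.42 with its brightest probe. The 844 lower and 743 higher probes of all compared became 33 and 79 with normexp, 81 and 184 with detection on both arrays, 1929 and 3127 with no detection filter, 225 and 476 with dim signals at their limit, 1948 and 1556 at 1.5-fold, and 502 and 447 at 3-fold. The median of all compared probes was 0.31 with no detection filter and -0.01 to 0.04 otherwise. Changes of the fold, the filter and the value for dim signals alter the calls by construction. So does normexp, which was run with an offset of 50 added to each signal. That offset shrinks fold changes most where signals are dim. How much of the normexp moves came from the offset, and the cause of the other moves, was not tested. With 1 array per condition, a difference of the size seen here cannot be told from the spread between cultures.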
